A study of Arvicanthis niloticus with 5 samples.

Results

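Genes that store iron and move it into and out of cells were measured in the eye of the Nile rat (Arvicanthis niloticus), a day-active African rodent. Of 10 genes listed by symbol, 9 had a transcript of their own: Fth1, Ftl1, Tfrc, Slc11a2, Slc40a1, Cp, Heph, Ireb2 and Aco1. They stood among 13982 genes that carried a symbol in any of 3 species columns of the deposited ortholog table. The symbol of transferrin (Tf) was found on a single transcript, which mouse and rat call Srprb and human calls TF, and this transcript is described apart. Transcripts were assigned to these genes by symbol.

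The labels list 5 samples of wild-type eye tissue in 1 group and describe a library pooled from 5 rats; they give no treatment and no comparison group. The RNA values form 1 column for the whole series, so neither an error over replicates nor a test over animals could be had, and genes of a like pattern across samples could not be sought. Levels are in FPKM, which scales a transcript's fragments to a length of 1 kilobase and to 1000000 mapped fragments; the file states 64967222 in all. Brackets hold 95% intervals for counting error alone; they leave out variation between animals and treat PCR copies as independent molecules. A whole eye also holds many cell types, and fewer cells of a type cannot be told apart from less RNA per cell.

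Iron is needed by photoreceptors and by the retinal pigment epithelium, whose visual cycle isomerase RPE65 is an iron enzyme, and free ferrous iron drives oxidative damage. Cells take up transferrin-bound iron through the transferrin receptor (Tfrc), release it from endosomes through the divalent metal transporter (Slc11a2), store it in ferritin shells built of heavy (Fth1) and light (Ftl1) chains, and export it through ferroportin (Slc40a1) with the help of the copper ferroxidases ceruloplasmin (Cp) and hephaestin (Heph). The iron regulatory proteins IRP1 (Aco1) and IRP2 (Ireb2) bind iron-responsive elements (IREs) in the mRNAs of several of these genes: they block translation of ferritin and ferroportin and stabilise the mRNA of the transferrin receptor. In mice, loss of both Cp and Heph leads to iron overload of the retina.

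Markers of the labelled tissue were present at high levels. All 4 lens markers lay between 253 and 2894 FPKM, all 4 photoreceptor markers between 91.8 and 344 FPKM, and the 3 measured of 4 markers of the retinal pigment epithelium between 102 and 432 FPKM. Müller glia had all 4 markers between 72.6 and 818 FPKM, and the ciliary body all 4 between 19.5 and 307 FPKM. Rlbp1, at 432 FPKM, was counted both for the retinal pigment epithelium and for Müller glia. The 818 FPKM of Apoe is the sum of 2 transcripts, of 299 and 257 nt. Other ends of these ranges also rest on short transcripts: Cryab (2894 FPKM) on 309 nt and Ptgds (307 FPKM) on 393 nt. Lim2 (253 FPKM) is the sum of 2, of 422 and 305 nt. Of 4 markers listed for adjoining extraocular muscle, 3 were measured: Mb at 127 FPKM, Acta1 at 55.3 FPKM and Ckm at 28.6 FPKM. The symbol Myh2 was on no transcript, and the source of this RNA was not tested. No transcript carried any of 6 symbols for liver or plasma proteins, among them albumin (Alb) and Trf, the mouse symbol of transferrin. A transcript with the human name TF is described below. The plasma protein haptoglobin (Hp), of another list, stood at 19.6 FPKM over 2 transcripts. A missing symbol is no measurement of the gene.

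Among the 9 genes, the RNA of the ferritin chains was the most abundant, far above that of the import, export and regulatory genes. The Srprb/TF transcript, level with Fth1 and 2.23-fold above Ftl1, stands outside the 9 genes and outside this comparison. Fth1, the chain with ferroxidase activity, stood at 1314 FPKM [1302 to 1326], rank 11 among all named genes. In that ranking the Srprb/TF transcript was summed with another Srprb transcript under the mouse symbol, and the sum lay above Fth1. Ftl1, the chain that promotes iron mineral formation inside the shell, stood at 585 FPKM [580.0 to 591], rank 26. Together they reached 1899 FPKM, which was 97.2% of the summed FPKM of the 9 genes and 0.771% of that of all named genes. Named transcripts held 47.2% of all fragments. The 108985 transcripts without a symbol enter neither these ranks nor these shares. The remaining 7 genes lay between 0.615 and 14.8 FPKM, and Ftl1 was 39.6-fold [38.4 to 40.9] above Cp, the next of the 9. At 100 FPKM or more there were thus 2 of the 9 genes, where 2.21% of all named genes reached that level.

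At 1 FPKM or more there were 8 of the 9 genes, against 93.2% of all named genes, so the number detected was close to the background. At 0.5 FPKM or more there were all 9, against 99.0% of named genes. The median of the 9 was 9.10 FPKM, the level of Tfrc, and that of all named genes was 6.50 FPKM. Above the median of all named genes lay 6 of the 9 genes, where 50.0% of named genes do so by definition. Slc11a2, Heph and Slc40a1 lay below it. The highest level, of Fth1, was 2137-fold above the lowest, of Slc40a1. That lowest level rests on 33 fragments of an 826 nt transcript, described below.

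**Figure D1:**
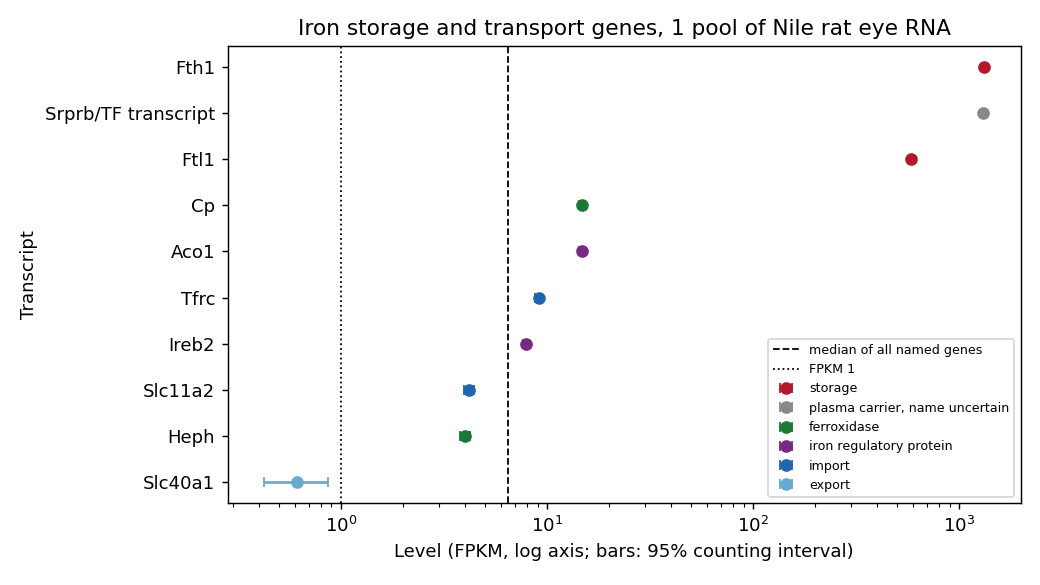
Level in FPKM (log axis) of each iron gene and of the Srprb/TF transcript in 1 pool of Nile rat eye RNA. Points are levels, bars 95% counting intervals, colours roles; the dashed line marks the median of all named genes (6.50 FPKM) and the dotted line 1 FPKM. Fth1, the Srprb/TF transcript and Ftl1 stand apart at 585 FPKM or more, and Slc40a1 alone lies under 1 FPKM.

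The excess of heavy over light chain RNA rested on transcript length. Fth1 was 2.25-fold [2.22 to 2.27] above Ftl1 per length (log2 ratio 1.17). Their fragments, not scaled for length, were nearly equal, at 46014 for Fth1 and 46316 for Ftl1, a log2 ratio of -0.0094 [-0.028 to 0.0092] whose interval includes 0. The difference in FPKM came from the lengths of 539 nt for Fth1 and 1218 nt for Ftl1, a factor of 2.26. The Fth1 transcript is slightly shorter than the mouse reading frame of this gene, so part of the mRNA was not in it. Both ferritin chains have processed pseudogenes in mammals, and both counts were fractional, so that some fragments were divided with other transcripts.

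Levels of this size were rare among named transcripts of like length. The 765 named transcripts within 20% of the length of Fth1 had a median of 1.62 FPKM, and 99.6% of them lay below Fth1. The 2019 transcripts of a length like that of Ftl1 had a median of 5.48 FPKM, and 99.8% of them lay below Ftl1. Both chains were thus near the top of the transcripts of their own length.

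**Figure D2:**
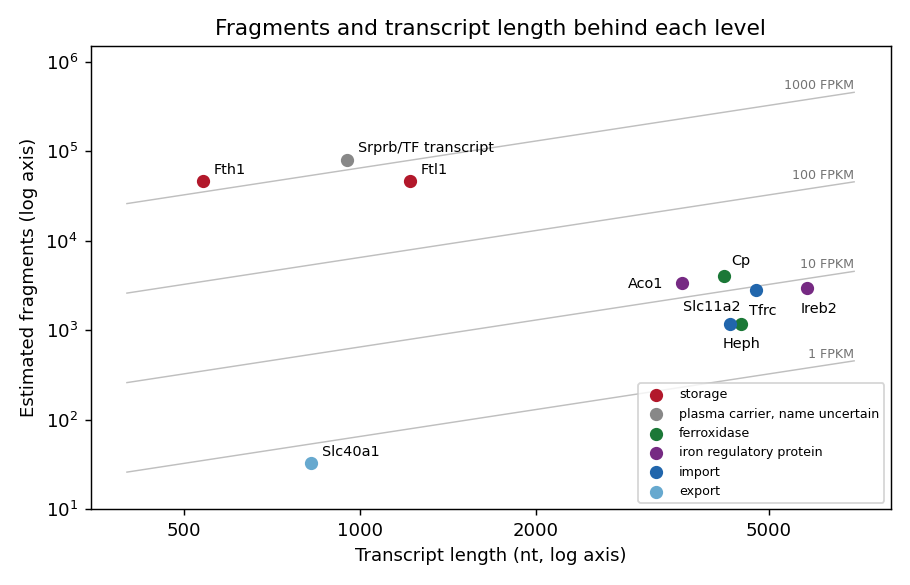
Estimated fragments against transcript length in nt (both log axes) for the iron genes and the Srprb/TF transcript; grey lines join points of equal FPKM and colours mark roles. Fth1 and Ftl1 sit at the same height (46014 and 46316 fragments) and differ in length, while Slc40a1 lies at the bottom with 33 fragments.

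The transcript with a transferrin name was as abundant as Fth1. It stood at 1307 FPKM [1298 to 1316] on 80735 fragments and 951 nt, and Fth1 was 1.01-fold [0.994 to 1.02] of its level, an interval that includes 1. Transferrin carries ferric iron in plasma, and in the eye and brain it is also made locally, for example by oligodendrocytes. Srprb encodes a subunit of the receptor for the signal recognition particle. In the RefSeq annotation of the Nile rat, Srprb and Tf are neighbours with 0 genes between them. Another transcript, of 2777 nt and named Srprb in mouse and SRPRB in human, stood at 25.1 FPKM [24.4 to 25.8], and the transcript with both names was 52.1-fold higher. At 951 nt the transcript with both names is shorter than the mouse transferrin reading frame. Its identity was therefore not settled by names or length, and no level is given for Tf as such. Beside it, all 5 oligodendrocyte markers were measured, between 7.89 and 118 FPKM, and the 3 retinal pigment epithelium markers are given above; their part in this level was not tested.

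Among the import genes, the receptor was above the endosomal transporter. Tfrc, which binds iron-loaded transferrin at the cell surface, stood at 9.10 FPKM [8.77 to 9.45] on 2812 fragments of a 4754 nt transcript, above 62.8% of named genes. Slc11a2, also known as DMT1, stood at 4.20 FPKM [3.96 to 4.45] on 1174 fragments, above 34.4% of named genes. Tfrc was 143.5-fold [138 to 149] below the Srprb/TF transcript (log2 ratio -7.17). Tfrc is abundant in immature red cells. Of 6 red cell markers, 3 were measured: Hba-a1 at 158 FPKM, Hbb-b1 at 112 FPKM and Alas2, the haem synthesis enzyme of the red cell lineage, at 1.59 FPKM. No transcript carried Slc4a1 or Epb42, and the part of blood in the level of Tfrc was not tested. Both import genes had fractional counts. Zdhhc19 overlaps Tfrc in the RefSeq annotation, so reads of Tfrc and Zdhhc19 could be confused. The symbol Zdhhc19 was on no transcript, so its own level is not known.

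The exporter had the lowest level of the 9 genes. Slc40a1, the single known iron exporter of mammalian cells, stood at 0.615 FPKM [0.423 to 0.864], resting on 33 fragments. It was 6.83-fold [4.83 to 9.66] below Slc11a2 (log2 ratio -2.77), and just 2.26% of named genes lay below it. Its transcript of 826 nt is shorter than the reading frame of ferroportin in mouse, and it was named in the mouse column alone. The 1297 named transcripts of like length had a median of 4.45 FPKM, and 2.31% of them lay below it. Pieces of the mRNA that carry no symbol do not enter the value, which describes this piece and not ferroportin RNA as a whole. Macrophages, which recycle iron, had all 6 markers measured, between 3.40 and 12.1 FPKM, 3 of them above the median of all named genes; their part in this level was not tested.

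The ferroxidases that work beside the exporter were better covered. Cp, which in the eye occurs both as a secreted and as a membrane-anchored form, stood at 14.8 FPKM [14.3 to 15.2] on 4031 fragments of a 4200 nt transcript. Heph, its membrane-bound homolog, stood at 3.99 FPKM [3.77 to 4.23] on 1164 fragments of a 4486 nt transcript. Cp was 3.70-fold [3.47 to 3.95] above Heph (log2 ratio of Heph over Cp -1.89). Their lengths were alike, and in fragments the log2 ratio was -1.79. In rank, 76.7% of named genes lay below Cp and 32.7% below Heph, and among named transcripts of like length the shares were 81.9% and 22.6%. In the annotation, Hps3 overlaps Cp and a pseudogene overlaps Heph. Hps3 was itself at 2.66 FPKM, and the sources used here do not say whether the counting used strand.

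The RNA of both iron regulatory proteins was measured on long transcripts, with that of IRP1 higher than that of IRP2. Aco1, which doubles as a cytosolic aconitase when it holds an iron-sulfur cluster, stood at 14.7 FPKM [14.2 to 15.2] on 3401 fragments. Ireb2, which is controlled by degradation when iron is ample, stood at 7.91 FPKM [7.63 to 8.20] on 2992 fragments. Ireb2 over Aco1 gave a log2 ratio of -0.90 [-0.97 to -0.83], so that Aco1 was 1.86-fold higher per length. In fragments the log2 ratio was closer to 0, at -0.18 [-0.26 to -0.11], because the Ireb2 transcript is the longer one, with 5823 nt against 3556 nt for Aco1.

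**Figure D3:**
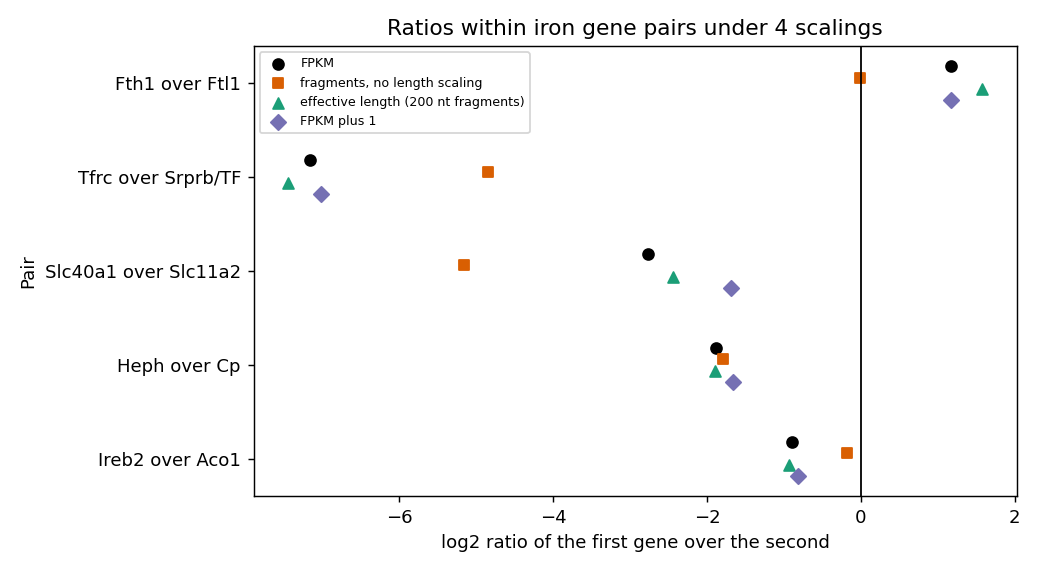
log2 ratio of the first over the second gene of 5 iron gene pairs, from FPKM, from fragments, from FPKM with an effective length for fragments of 200 nt and from FPKM plus 1. In 4 pairs every scaling shown lies left of 0; the Fth1 over Ftl1 ratio is 1.17 in FPKM and -0.0094 in fragments.

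In order of level, the transcripts were Fth1, Srprb/TF, Ftl1, Cp, Aco1, Tfrc, Ireb2, Slc11a2, Heph and Slc40a1. Of the 9 steps between neighbours, 3 had an interval of the ratio that includes 1. These were Fth1 over Srprb/TF, Cp over Aco1 (1.00-fold [0.959 to 1.05]) and Slc11a2 over Heph (1.05-fold [0.970 to 1.14]). The largest step was Ftl1 over Cp, and the next was Heph over Slc40a1 (6.49-fold [4.60 to 9.18]). Naming was uneven: 4 of the 9 genes had their symbol in all 3 species columns (Ftl1 as FTL in human), 2 in 2 columns, and Tfrc, Slc40a1 and Cp in 1.

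Other genes of iron metabolism were read from 8 lists holding 88 genes, of which 77 were measured. All 77 reached 1 FPKM, against the 93.2% of named genes given above, and 57 reached 5 FPKM, against 59.8% of named genes. For Tmprss6 and Hpx the counting interval extended below 1 FPKM. The median of the 77 genes was 9.18 FPKM. Of the 77, 48 lay above the median of all named genes, where 50.0% of named genes do so by definition. The highest of them was App, at 145 FPKM, below both ferritin chains. The median of 7 of the 8 lists was above that of all named genes, and the exception was the list of reduction and uptake.

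In the list of iron reduction and alternative uptake, all 13 genes were measured, with a median of 4.75 FPKM. Prnp, the prion protein, for which a ferrireductase activity has been described, was highest at 53.2 FPKM. Steap3, the endosomal ferrireductase that acts before Slc11a2, followed at 18.0 FPKM, the sum of 2 transcripts. Lrp2 (megalin), an endocytic receptor, was lowest at 1.19 FPKM, on 138 fragments of a 1783 nt transcript. The value describes this transcript alone.

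In the list of cytosolic chaperones and ferritin turnover, 4 of 7 genes were measured. Glrx3, a monothiol glutaredoxin that handles iron-sulfur clusters in the cytosol, stood at 115 FPKM on a transcript of 718 nt. Fbxl5, the iron-sensing ubiquitin ligase subunit that targets IRP2 for degradation, stood at 38.2 FPKM, above Ireb2 itself. Bola2, a partner of Glrx3, was lowest at 9.30 FPKM. No transcript carried the iron chaperones Pcbp1 and Pcbp2 or mitochondrial ferritin (Ftmt).

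In the list of hepcidin and systemic sensing, 6 of 9 genes were measured, with a median of 9.17 FPKM. Bmpr1a, a BMP receptor, and Hfe, the haemochromatosis protein that binds the transferrin receptor, were highest at 11.1 and 11.0 FPKM. The protease Tmprss6 was lowest at 1.05 FPKM [0.799 to 1.36] on 58 fragments of an 848 nt transcript. No transcript carried hepcidin itself (Hamp), Tfr2 or Erfe.

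In the list of mitochondrial import and iron-sulfur assembly, 19 of 22 genes were measured, with a median of 10.8 FPKM. Hspa9, a mitochondrial HSP70 chaperone that also serves protein import, was highest at 84.7 FPKM, followed by the assembly factor Isca2 at 39.4 FPKM. The lowest was the iron importer Slc25a37 (mitoferrin of red cells), at 3.42 FPKM. The symbols Iscu, Isca1 and Iba57 were on no transcript.

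In the list of haem synthesis, 8 of 9 genes were measured, with a median of 10.1 FPKM. Urod, uroporphyrinogen decarboxylase, and Fech, the ferrochelatase that inserts iron, were highest and both at 37.5 FPKM, and Alas2 was lowest. The symbol Ppox was on no transcript. In the list of haem transport and breakdown, all 13 genes were measured, with a median of 11.0 FPKM. Slc48a1, a haem transporter of endolysosomes, was highest at 50.5 FPKM, and Blvrb, a biliverdin reductase, followed at 24.1 FPKM. Hpx (haemopexin, a haem scavenger of plasma) was lowest at 1.28 FPKM [0.903 to 1.76] on 38 fragments. That level is the sum of 2 short transcripts, of 486 and 433 nt.

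Of 6 further genes listed for an iron-responsive element, all were measured, with a median of 27.8 FPKM. App, the amyloid precursor protein, was highest, and the phosphatase Cdc14a was lowest at 2.96 FPKM.

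**Figure D4:**
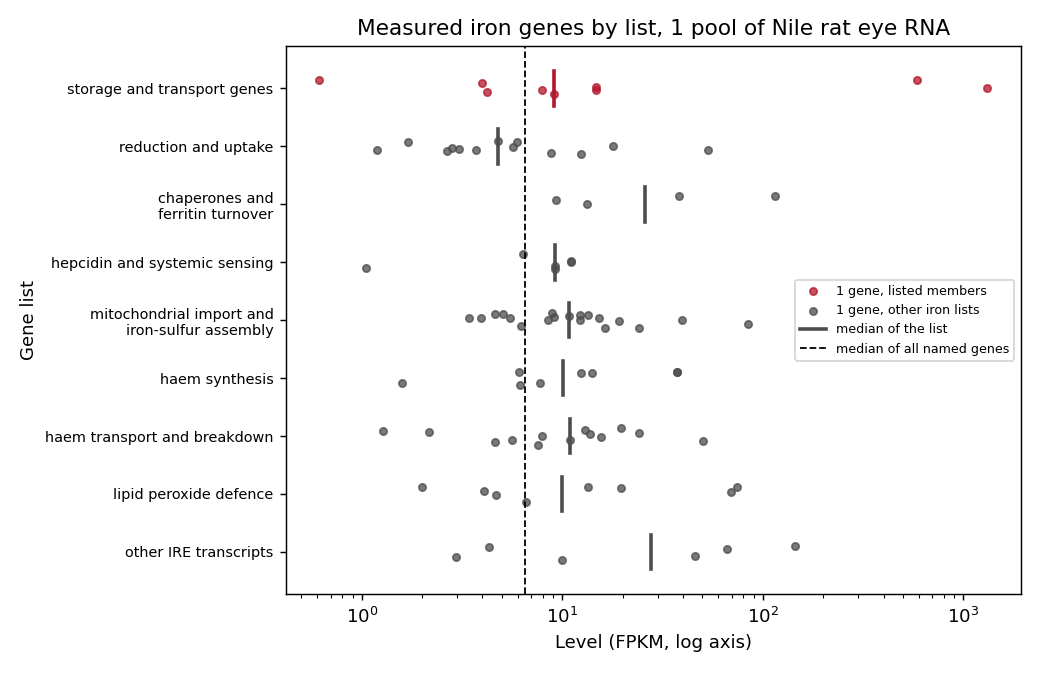
Level in FPKM (log axis) of each measured gene, by list, in 1 pool; red points are the 9 storage and transport genes, grey points the other lists, short bars list medians and the dashed line the median of all named genes. The red points spread from 0.615 to 1314 FPKM, wider than any other list, and the other lists end at 145 FPKM.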

How the data were processed

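Total eye RNA of wild-type Nile rats was sequenced; per the labels' protocols the library was pooled from 5 rats. Per the file headers, each of 124439 transcripts has an FPKM, a fragment count and a length. The authors' FPKM equalled count over full length over the stated total, to a relative difference of 1e-05, in all 124299 transcripts with a fragment. The authors' fragment column holds estimated counts: 39.3% were not whole (tolerance 1e-06), and they sum to 2.67% more than the stated mapped total. Bowtie was used, per the submitters' processing notes; the sources used here do not give its version, the assembly method or any genome build, and no coordinates are reported. An ortholog table of Ensembl identifiers was not used.

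A member or list gene was any transcript with its symbol in a mouse, rat or human column, case ignored, and transcripts of a gene were summed; each of the 9 genes had 1. All-gene values used 15454 named transcripts of 13982 genes. There each transcript counted under its mouse symbol, or else its rat or human one, so Srprb/TF entered as Srprb. RefSeq names of the Nile rat (mArvNil1.pat.X) matched all 10 listed genes, Ftl1 as Ftl. Intervals are gamma (levels) and delta-method (ratios) Poisson intervals, checked on counts simulated from the same Poisson model. That check covers the computation and not whether divided fragments or PCR copies follow the model. The genes named are the 9, the Srprb/TF transcript, and the 2 highest and the lowest of each list, of which 1 gene is not reported here; markers and other genes were added as examples after their values were seen. Members and lists were chosen with earlier results of these data known. Alternatives were other ways to combine and name transcripts, length and depth scaling, thresholds of 0.5 and 5 FPKM, and a pseudocount of 1 FPKM. Software was SciPy 1.17.1, pandas 2.3.3 and NumPy 2.4.6 under Python 3.11.15, with figures from Matplotlib 3.10.9.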

Additional observations from a re-analysis of the deposited data

How the results depend on the processing

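Of 64 values recomputed under the alternatives, 49 stayed within the main value's counting interval or, for counts, within 1.5 times, 14 moved further and 1 changed sign. The members at the threshold numbered 9 at 0.5 FPKM (99.0% of named genes) and 6 at 5 FPKM (59.8%). The 77 other iron genes at 1 FPKM numbered 74 after rescaling, 75 with the mouse name first, and 76 with the highest transcript, with the length-weighted mean or without transcripts under 500 nt. Highest transcript, length-weighted mean and leaving out transcripts under 500 nt change no member by construction, since each rested on 1 transcript of at least that length. Rescaling multiplies every FPKM by the same factor and so cannot change a ratio. These fixed values are part of the 49, which is therefore no count of outcomes that could have differed. The median of the 9 genes was 6.64 FPKM after rescaling to a sum of 1000000, 11.9 FPKM over the genes at 1 FPKM or more, 9.50 FPKM with an effective length for 200 nt fragments, and 11.9 FPKM with the Srprb/TF transcript counted as Tf; these last 2 settings were chosen after seeing the data. With fragments in place of FPKM, the log2 ratio of Fth1 over Ftl1 turned to -0.0094, that of Tfrc over Srprb/TF was -4.84, Slc40a1 over Slc11a2 -5.15, Heph over Cp -1.79 and Ireb2 over Aco1 -0.18; the change follows from leaving out the lengths. The effective length gave 1.57 for Fth1 over Ftl1 and -7.44 for Tfrc over Srprb/TF. A pseudocount of 1 FPKM gave -7.02 for Tfrc over Srprb/TF, -1.69 for Slc40a1 over Slc11a2, -1.66 for Heph over Cp and -0.82 for Ireb2 over Aco1. With the mouse name first, the transcript with both names is Srprb and no Tfrc over Tf ratio exists. No paired analysis was possible because the values form 1 pooled column, and for the same reason no sample could be left out. The depth limits Slc40a1 most, with 33 fragments.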

Other observations

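Genes of the defence against iron-driven lipid peroxidation were read as a further list, of which 8 of 9 were measured with a median of 9.98 FPKM. Gpx4, the peroxidase that reduces lipid hydroperoxides in membranes, was highest at 74.1 FPKM [72.0 to 76.3]. Slc3a2, the heavy chain of the cystine importer, followed at 69.1 FPKM. Its light chain Slc7a11 stood at 4.65 FPKM over 2 transcripts. Slc3a2 also pairs with other light chains, so their levels need not be equal. Alox15, a lipoxygenase that forms lipid hydroperoxides, was lowest at 1.995 FPKM.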
